A study of Rattus norvegicus with 16 samples.

Results

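Pravastatin-treated primary rat hepatocytes were compared with untreated ones on 8 two-colour arrays, chosen by the drug name in the sample labels, of 16 arrays in the whole series. Each array held RNA of 1 treated and 1 untreated culture. The cells came from male Sprague Dawley rats and were kept in Williams Medium E, and from 48 hours after plating they received 30 µM pravastatin or nothing for 48 hours. On 4 arrays the treated RNA carried the dye A647 and on the other 4 the dye A555. The remaining 8 arrays compared 100 µM SQ1 with untreated cells and were used here to estimate the spread and to show where pravastatin differed. The design text calls the arrays biological replicates, and whether they came from separate animals is not given in the sources used here. File names number 8 untreated cultures, each used on 1 array of either drug, in 2 culture series (controls 1 to 4 and 13 to 16). The arrays of a series also share a scan day and, for each drug, a slide, so these cannot be told apart.

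Statins inhibit HMG-CoA reductase, the enzyme that makes mevalonate. Mevalonate is the source of sterols and also of the isoprenoids that anchor small GTPases such as Ras to membranes. Cells that run short of sterol release SREBP transcription factors from the endoplasmic reticulum, and these switch on genes of sterol synthesis, sterol uptake and fatty acid synthesis. Hepatocytes are in addition the site of bile acid synthesis, drug metabolism and the making of most plasma proteins, and in culture they lose part of these functions over days.

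Values are log2 of pravastatin over untreated, so that 1.00 is a doubling in level. The ± is the model's standard error, with the spread estimated over all 16 arrays of both drugs after a term for the dye. Called genes are those with an adjusted p (limma, Benjamini-Hochberg over all 20760 genes tested) below 0.05. On the pravastatin arrays the A555 dye gave median signals of 588 to 654 (local background 306 to 312) and the A647 dye 790 to 1002 (339 to 345). With A555 71.3% to 77.6% of spots were well above background, with A647 72.5% to 76.8%, and no spot was saturated. With the main processing, given below, replicate 1 stood apart from the other arrays. Over the 402 genes called with a change of at least 1.5-fold, its values rose with a slope of 0.745 on the mean of the other 7 arrays, against 0.952 to 1.089 for each of those, and it had the smallest change in 216 of the 402. With the Agilent processed signals its slope was 0.943, within the range of the others, from 0.939 (replicate 6) to 1.064 (replicate 7). By this measure it did not stand apart with those signals. Leaving it out gave 8155 calls in place of 8081 and moved no named gene's fold by as much as 1.5 times. All 5 hepatocyte markers (Alb, Apoa1, Ttr, Cps1 and Hnf4a) were above background in both channels of all 8 arrays, and so were all 8 macrophage markers. Of the T cell, B cell and mast cell markers, Cd3e, Cpa3, Kit and Ms4a2 were above background on none of the 8 arrays, while Cd3d was so on all 8.

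Pravastatin changed many transcripts a little and few by much. Of all genes tested 4020 were called higher (19.4%) and 4061 lower (19.6%), together 8081 or 38.9%, and 9568 passed an unadjusted p below 0.05. Among the called genes 95.0% changed by less than 1.5-fold, and the median size of their change was 0.16. A change of at least 1.5-fold was reached by 200 genes upward (0.963%) and 202 downward (0.973%). Of the rises 36 reached 4-fold or more. The median of all genes was 0.00, with quartiles at −0.07 and 0.06. Each count of a list below is read against the 38.9% called among all genes.

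**Figure D1:**
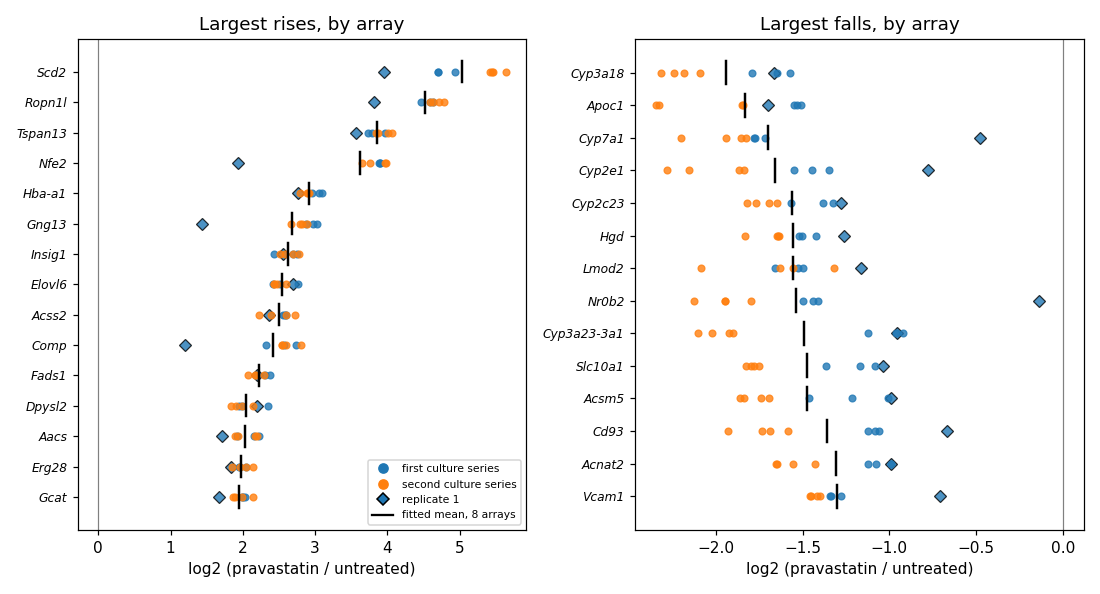
Log2 of pravastatin over untreated (horizontal axis) for the 15 largest rises (left) and 14 of the largest falls (right) outside cholesterol synthesis and macrophage markers, with 1 point per array, coloured by culture series, replicate 1 as a diamond and the fitted mean as a vertical line. Every point lies on its side of 0, which the choice of these genes required. Replicate 1 lies nearest to 0 by a wide gap for Nfe2 (1.93), Gng13 (1.43), Comp (1.20), Cyp7a1 (−0.48) and Nr0b2 (−0.14).

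Several genes that sense and move sterols rose. Insig1, which holds the SREBP escort protein in the endoplasmic reticulum, had a lowest, median and highest array value of 2.44, 2.63 and 2.78, and rose by 2.62 ± 0.04 or 6.16-fold (adjusted p = 1.5e-18). Its arrays were tightly grouped. Stard4, a carrier of cholesterol between membranes, lay between 1.76 and 2.01 and rose by 1.85 ± 0.05. All arrays of both genes stood above 0, as the choice of genes from a list required. Scap, the SREBP escort itself (1.097 ± 0.04), and Srebf2, the gene of SREBP-2 (0.79 ± 0.07), rose less, and both were picked here after their values were seen.

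Within the same list other members moved the opposite way. Insig2, the second Insig gene, fell by 0.82 ± 0.03 (arrays from −0.98 to −0.65). Mylip, a ubiquitin ligase and target of the sterol receptor LXR, fell by 0.90 ± 0.08, with −0.08 in replicate 1 and a lowest array of −1.17; its other probe was at −0.27. Of 17 measured genes of sterol sensing and uptake 8 rose, 6 fell and 3 were not called (median 0.17). That median moved to 0.08 for the first culture series and to 0.26 under the Agilent processed signals. Among exporters, Abcg5, a sterol transporter of the canalicular membrane, rose by 1.24 ± 0.13 with arrays from 0.22 to 1.94, and by 2.71 with the Agilent processed signals. Abcg1, a cholesterol exporter and LXR target, had −0.31 in replicate 1, a median of −1.29 and a lowest array of −1.54, and fell by 1.17 ± 0.10, or −1.30 without replicate 1. Abca1, the best known LXR target, stood at −0.05 ± 0.05 (adjusted p = 0.45) and was picked after its value was seen.

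Desaturation and elongation of fatty acids held the largest rise. Scd2, a delta-9 desaturase that adult liver expresses at low levels, had 3.95 in replicate 1 and 4.70 to 5.64 on the other arrays, and rose by 5.03 ± 0.13 or 32.8-fold (adjusted p = 2.2e-15). Its relative Scd, the main hepatic desaturase, fell by 0.48 ± 0.06 with 6 of 8 arrays below 0. Elovl6, which elongates C16 fatty acids, lay between 2.41 and 2.76 and rose by 2.54 ± 0.10 or 5.81-fold. Fads1, the delta-5 desaturase of polyunsaturated fatty acids, lay between 2.08 and 2.38 and rose by 2.22 ± 0.03 or 4.67-fold. Of 15 measured genes of the list 11 rose and 4 fell (median 0.41, from 0.35 to 0.52 over the settings tried). Besides Scd the fallers were Elovl2, Fads6 (−0.27 ± 0.04) and Hacd3 (−0.07 ± 0.03), and Hacd3 lost its call in most settings. Scd and Elovl2 are named because the count is small.

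Fatty acid and glycerolipid synthesis was mixed. Acss2, which makes acetyl-CoA from acetate, lay between 2.22 and 2.72 and rose by 2.50 ± 0.05 or 5.67-fold. Fasn, fatty acid synthase, lay between 0.69 and 1.16 and rose by 0.94 ± 0.11 or 1.91-fold. Thrsp, a lipogenic regulator, fell by 0.56 ± 0.08 and Dgat2, which makes triglyceride, fell by 0.44 ± 0.04. Both were below 0 on all 8 arrays, as the choice of genes from a list required. Of 23 measured genes 9 rose, 6 fell and 8 were not called (median 0.06, or 0.14 with the Agilent processed signals). Aacs, which activates acetoacetate in the cytosol for lipid synthesis, rose by 2.03 ± 0.03 with arrays from 1.72 to 2.23. Erg28, a scaffold of the sterol-demethylating enzymes, rose by 1.97 ± 0.04 with arrays from 1.84 to 2.15.

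Of 22 measured genes of phospholipid and sphingolipid synthesis 7 rose and 5 fell (median 0.02). Cds1, which makes CDP-diacylglycerol, had 0.06 in replicate 1, a median of 0.65 and a highest array of 0.80, and rose by 0.59 ± 0.05. Pcyt2, of phosphatidylethanolamine synthesis, rose by 0.41 ± 0.03. Pemt, which methylates phosphatidylethanolamine to phosphatidylcholine in liver, fell by 0.67 ± 0.08. Lipid droplet proteins had 2 of 10 up and 4 down (median −0.01, of either sign over the settings), led by G0s2, an inhibitor of triglyceride lipase, which fell by 0.67 ± 0.06.

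Several of the largest rises were in genes of no lipid list. Ropn1l, a sperm fibre-sheath protein by its known role, had 3.82 in replicate 1 and 4.46 to 4.78 on the others, and rose by 4.53 ± 0.07 or 23.1-fold (adjusted p = 7.8e-19). Tspan13, a tetraspanin of the cell surface, lay between 3.57 and 4.07 and rose by 3.86 ± 0.06 or 14.5-fold. Nfe2, an erythroid transcription factor, had 1.93 in replicate 1 and 3.64 to 3.99 on the others, and rose by 3.62 ± 0.14 or 12.3-fold, by 3.85 without replicate 1 and by 4.49 with the Agilent processed signals. Gng13, a G protein gamma subunit known from taste and olfactory cells, had 1.43 in replicate 1, a median of 2.85 and a highest array of 3.02, and rose by 2.68 ± 0.11, or by 3.30 with the Agilent processed signals. Gng8, another gamma subunit, rose by 1.07 ± 0.08. The group of gamma subunits had 3 of 6 measured genes up and 0 down.

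Hba-a1, an alpha globin, rose by 2.92 ± 0.04 on its brighter probe with arrays from 2.76 to 3.10, while its second probe was at −0.01. The alpha globin genes are near-identical copies, and the 2 probes disagree, so the gene that rose is uncertain. Comp, a cartilage matrix protein, had 1.20 in replicate 1, a median of 2.56 and a highest array of 2.81, and rose by 2.42 ± 0.11. Dpysl2, a microtubule-binding protein of growing axons, rose by 2.04 ± 0.07, with 1.13 on its other probe. Gcat, which breaks down threonine in mitochondria, rose by 1.95 ± 0.04 with arrays from 1.67 to 2.14. Aldoc, the brain form of aldolase, lay between 1.45 and 1.90 and rose by 1.78 ± 0.04 or 3.43-fold on its brighter probe and by 0.58 on the other.

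The promoters of 4 of these genes are shown because each carries one of a pair of motifs known from sterol-regulated promoters. RefSeq sequence of build GRCr8 was searched in the 300 bases from 250 before to 50 after the start of each gene, on both strands, for CCAAT, the core of the NF-Y box, and for TCACNCCAC, a form of the sterol response element; neither motif contains the other. The 200 bases before the start are printed 5′ to 3′ on the gene's strand, with the motif in capitals. Scd2 lies at chr1:253118177-253118376 on the plus strand and has CCAAT beginning 97 and 54 bases before the start. Tspan13 lies at chr6:58492805-58493004 on the minus strand and has CCAAT beginning 89 bases before it. Gng13 (chr10:15245498-15245697, plus strand) and Aldoc (chr10:63715344-63715543, plus strand) have the sterol response element 15 and 138 bases before it.
Scd2: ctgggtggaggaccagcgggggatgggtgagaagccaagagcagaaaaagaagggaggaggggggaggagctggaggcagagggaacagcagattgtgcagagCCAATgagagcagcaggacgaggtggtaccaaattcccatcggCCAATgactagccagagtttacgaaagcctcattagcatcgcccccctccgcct
Tspan13: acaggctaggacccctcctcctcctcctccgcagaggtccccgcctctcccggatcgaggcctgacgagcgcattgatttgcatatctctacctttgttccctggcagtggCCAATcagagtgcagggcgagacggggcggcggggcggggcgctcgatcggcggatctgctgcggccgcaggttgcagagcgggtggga
Gng13: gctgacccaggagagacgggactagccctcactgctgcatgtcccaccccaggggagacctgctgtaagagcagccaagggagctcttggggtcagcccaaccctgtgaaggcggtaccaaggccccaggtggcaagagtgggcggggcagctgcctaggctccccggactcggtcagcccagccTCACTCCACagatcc
Aldoc: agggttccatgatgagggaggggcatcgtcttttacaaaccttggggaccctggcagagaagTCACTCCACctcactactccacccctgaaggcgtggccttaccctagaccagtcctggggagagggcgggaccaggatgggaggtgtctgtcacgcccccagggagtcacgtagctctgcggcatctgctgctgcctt

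The sterol response element was found in 6 of 92 genes that rose at least 1.5-fold outside cholesterol synthesis and have a promoter in the table (6.52%), in 0 of 130 that fell as far, and in 310 of all 27457 promoters (1.13%). In the cholesterol synthesis list, whose genes are known as sterol-regulated, it was in 0 of 16 promoters and CCAAT in 13 of 16 (81.2%). CCAAT was in 43.5% of those that rose, 42.3% of those that fell and 37.7% of all promoters. Of the 15 largest rises 12 have a promoter in the table, 7 of them with CCAAT and 1 with the sterol response element. Of 14 of the largest falls 12 have one, 3 of them with CCAAT and 0 with the element. These are matches of letters, given as a description.

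Genes that use isoprenoids changed little. The prenyl transferases and the makers of dolichol and ubiquinone had 6 of 21 measured genes up (28.6%, below the 38.9% of all genes) and 0 down, with a median of 0.05. Rce1, which trims prenylated proteins, rose by 0.20 ± 0.04, and Pggt1b, the catalytic subunit of geranylgeranyl transferase I, rose by 0.17 ± 0.04 and lost its call in the first culture series alone (adjusted p = 0.054).

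The transcripts of the prenylated GTPases moved by small amounts too. Rhoa (0.02 ± 0.04), Rac1 (0.05 ± 0.03), Cdc42 (0.01 ± 0.04) and Rap1a (−0.02 ± 0.03) were not called, and each had arrays on both sides of 0. Rhob, a short-lived GTPase, lay between 0.15 and 0.42 and rose by 0.29 ± 0.03 (adjusted p = 2.6e-07). Rras, a Ras relative that acts on integrins, lay between 0.63 and 0.96 and rose by 0.80 ± 0.03 or 1.75-fold (adjusted p = 3.3e-14), the sole member of the Ras, Rap and Rab lists to change by 1.5-fold. Hras was at 0.09 ± 0.03, with a call that was lost in 8 of 20 settings. Rac2, the Rac protein of blood cells, fell by 0.53 ± 0.05, as did Arhgdib, a GTPase inhibitor of blood cells, by 0.53 ± 0.04. Rab4b, of endosome recycling, rose by 0.46 ± 0.04 with 0.05 in replicate 1, and Rab3d, of secretory granules, fell by 0.56 ± 0.03.

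Counts in the families described were near the background share. Ras and Rap GTPases had 5 of 20 up and 4 down (median 0.00, of either sign over the settings), and Rab GTPases 8 of 41 up and 10 down (median −0.03). Klf2, a transcription factor that statins are known to induce in endothelium, rose by 0.30 ± 0.04 with arrays from 0.01 to 0.52. Klf4 lay between 0.54 and 1.12 and rose by 0.79 ± 0.07, while Klf15, a regulator of amino acid and glucose metabolism, lay between −0.93 and −0.60 and fell by 0.71 ± 0.04.

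The cytoskeleton and its response genes were close to the middle. Actin cytoskeleton genes had 6 of 31 up and 6 down (median −0.01, of either sign over the settings), with Ezr, which links actin to the membrane, at 0.18 ± 0.02 and Myl9, a myosin light chain, at −0.29 ± 0.05. Tubulins had 1 of 13 up and 6 down. Tuba1a rose by 0.69 ± 0.08 and Tubb2a fell by 0.47 ± 0.06. Immediate early genes had 4 of 25 up and 9 down, led by the MAP kinase phosphatases Dusp6 (−0.41 ± 0.04) and Dusp5 (−0.39 ± 0.03). Junction and keratin genes had 6 of 25 up and 6 down, with Cldn3, a tight-junction claudin, up by 0.54 ± 0.04.

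Cytochromes P450 of drug metabolism fell as a group. Of 30 measured genes of families 1 to 3 24 fell and 5 rose (96.7% called), with a median of −0.46 that lay between −0.61 and −0.32 on single arrays. Cyp3a18 lay between −2.31 and −1.57 and fell by 1.94 ± 0.09 or 3.83-fold (adjusted p = 4.8e-12). Cyp2e1, the ethanol-inducible P450, had −0.78 in replicate 1 and a lowest array of −2.28, and fell by 1.66 ± 0.13. Cyp2c23, an arachidonic acid epoxygenase, lay between −1.82 and −1.28 and fell by 1.56 ± 0.08. Cyp3a23-3a1, a target of the drug receptor PXR, lay between −2.10 and −0.92 and fell by 1.49 ± 0.14. In all 4 genes the arrays of both culture series were below 0, as the choice of genes required, with those of the second series lower.

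The few P450 genes that rose were Cyp2t1 (1.63 ± 0.05, arrays from 1.37 to 2.06), Cyp1a1, the target of the aryl hydrocarbon receptor (0.95 ± 0.12, arrays from 0.47 to 1.71), Cyp2c12, the female-typical P450 of rat liver (0.76 ± 0.06), Cyp2j10 and Cyp2s1. The last 3 are named because the count is small. Cyp2c11, the male-typical counterpart, fell by 1.06 ± 0.05 and was picked after its value was seen. Probes of such near-identical family members may share target, which was not tested.

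Conjugating enzymes followed the P450 genes in count. Of 40 measured genes 30 fell and 3 rose (median −0.36, single arrays from −0.62 to −0.22). Gstt2, a glutathione transferase, lay between −1.14 and −0.56 and fell by 0.93 ± 0.07, and Gsta1 fell by 0.86 ± 0.04, by a mean of −1.23 on the arrays with treated RNA in A555 and −0.48 on those with it in A647. Sult1c3, a sulfotransferase, rose by 0.44 ± 0.08 and Gstm3 rose by 0.21 ± 0.03. Among genes of redox defence 21 of 30 fell and 4 rose (median −0.19). The risers were the glutathione peroxidases Gpx2 (0.94 ± 0.03, arrays from 0.77 to 1.097), Gpx3 (0.33 ± 0.04), Gpx4 and Gpx1, of which the last 2 are named because the count is small. Akr7a3, an aflatoxin aldehyde reductase, lay between −1.101 and −0.79 and fell by 0.96 ± 0.03. Mt2A, a metallothionein, fell by 0.89 ± 0.04, with a mean of −1.42 in one dye orientation and −0.35 in the other.

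**Figure D2:**
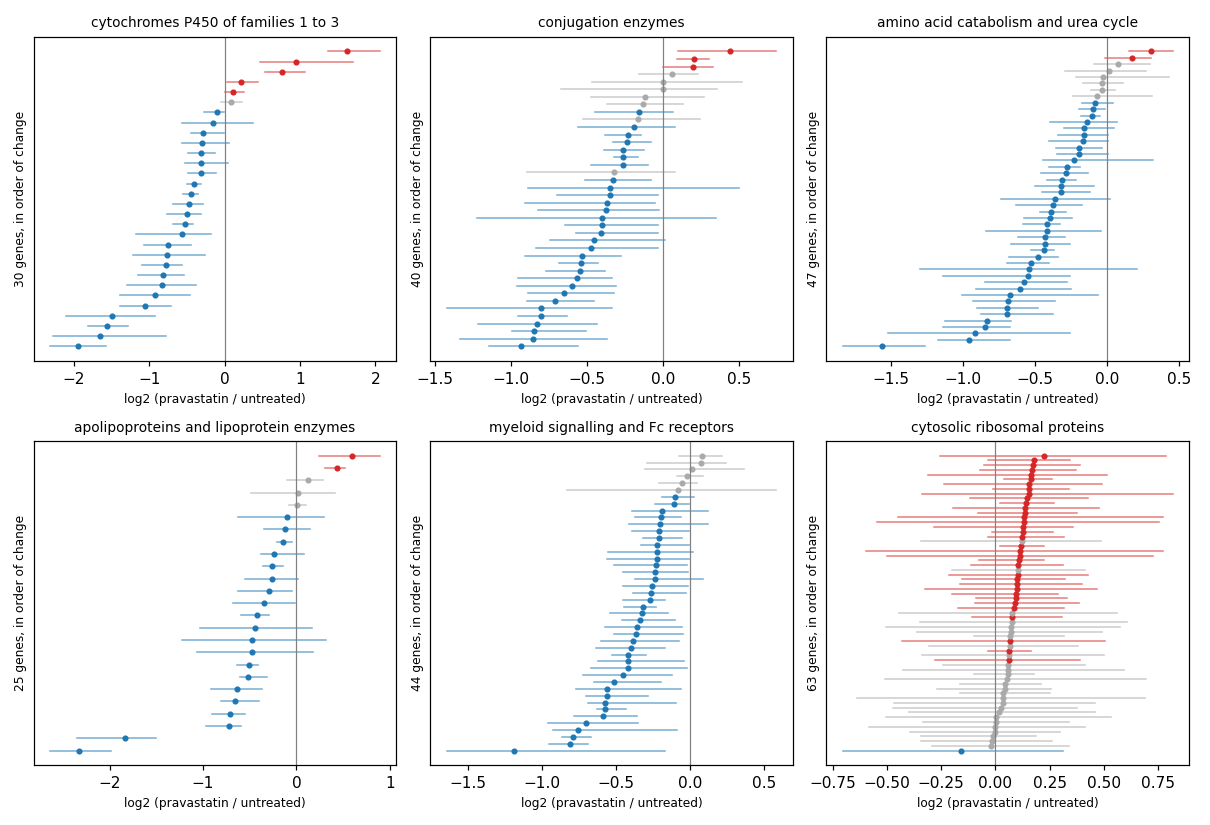
Fitted log2 of pravastatin over untreated (points, horizontal axis) and range of the 8 arrays (bars) for the members of 6 gene lists, ordered by their change from bottom to top, with called rises in red, called falls in blue and genes not called in grey. In the P450, conjugation, amino acid, apolipoprotein and myeloid panels most points lie left of 0 and are blue, and in the ribosomal panel the points are close to 0 with bars that cross it.

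Cyp7a1, Nr0b2, Slc10a1 and Akr1d1, which take part in making, sensing or taking up bile acids, fell. Cyp7a1, the rate-limiting enzyme of the classic pathway from cholesterol, had −0.48 in replicate 1 and −2.20 to −1.72 on the others, and fell by 1.70 ± 0.13 or 3.24-fold (adjusted p = 1.4e-08), or −1.88 without replicate 1 and −2.32 with the Agilent processed signals. Nr0b2, the repressor SHP that bile acids induce, had −0.14 in replicate 1 and −2.13 to −1.41 on the others, and fell by 1.54 ± 0.15, or −1.74 without replicate 1 and −2.57 with the processed signals. Slc10a1, the bile acid importer NTCP, lay between −1.82 and −1.04 and fell by 1.48 ± 0.12 or 2.78-fold. Abcb11, the bile salt export pump, fell by 0.38 ± 0.04 and Slco1b2, the hepatic uptake carrier of statins and other organic anions, fell by 0.43 ± 0.09. Akr1d1, the reductase that shapes the bile acid nucleus, had −0.14 to −1.85 over the arrays and fell by 1.15 ± 0.18. Other P450 families had 17 of 25 down and 3 up (median −0.21), and uptake and export carriers 10 of 30 down and 5 up (median −0.06). Liver transcription factors and nuclear receptors had 17 of 39 down and 3 up (median −0.08). Nr1i3, the drug receptor CAR, fell by 0.66 ± 0.15 and lost its call in the first culture series alone (adjusted p = 0.12).

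Lipoprotein genes fell as well. Apoc1, a small apolipoprotein of several lipoproteins, lay between −2.35 and −1.51 and fell by 1.83 ± 0.12 or 3.56-fold. Of 25 measured genes of the list 20 fell and 2 rose (median −0.35, single arrays from −0.51 to −0.20). The risers were Apoa1, the main protein of HDL (0.60 ± 0.07), and Angptl4, a lipase inhibitor (0.44 ± 0.03). Lmod2, an actin nucleator of muscle that is on no list, lay between −2.09 and −1.17 and fell by 1.56 ± 0.09. Acsm5 and Acnat2, enzymes that activate and conjugate fatty acids, fell by 1.48 ± 0.11 and by 1.31 ± 0.09.

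Amino acid catabolism and the urea cycle had 39 of 47 measured genes down and 2 up (87.2% called, median −0.36, single arrays from −0.45 to −0.25). Hgd, the homogentisate oxidase of tyrosine breakdown, lay between −1.83 and −1.26 and fell by 1.56 ± 0.08 or 2.94-fold. Otc, ornithine transcarbamylase of the urea cycle, lay between −1.17 and −0.67 and fell by 0.96 ± 0.06. The risers on the list were Cbs, cystathionine beta-synthase (0.31 ± 0.04), and Psph, of serine synthesis (0.17), which is named because the count is small. Gcat, the threonine-degrading enzyme given above, is not on this list and rose by 1.95 ± 0.04.

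Glucose and glycogen genes had 18 of 38 down and 4 up (median −0.12). Ppp1r3c, which targets a phosphatase to glycogen, lay between −1.21 and −0.85 and fell by 1.02 ± 0.04. G6pc1, the glucose-6-phosphatase that releases glucose from liver, lay between −1.20 and −0.88 and fell by 1.001 ± 0.06. Fatty acid oxidation and ketogenesis had 20 of 46 down and 10 up (median −0.06, or 0.01 for the arrays of the first culture series and −0.13 for the others). Acsl3, an acyl-CoA synthetase of lipid droplets, rose by 0.54 ± 0.03, and Acot12, a cytosolic acetyl-CoA hydrolase, fell by 0.75 ± 0.05.

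Oxidative phosphorylation genes shifted downward by small amounts, with 35 of 50 down and 0 up (median −0.13). Only 13 fell under median centring in place of loess, where 2 rose and the median was −0.05. Atp5f1a, of the ATP synthase, was at −0.30 ± 0.03. Cytosolic ribosomal proteins had 35 of 63 up and 1 down (median 0.09), but their single-array medians were −0.18 to −0.07 where treated RNA was in A555 and 0.23 to 0.37 where it was in A647, and 8 of 63 rose in the first culture series alone. The dye term of the model absorbs such an offset only in the mean of both orientations. Proteasome genes had 10 of 30 up and 2 down (median 0.05).

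**Figure D3:**
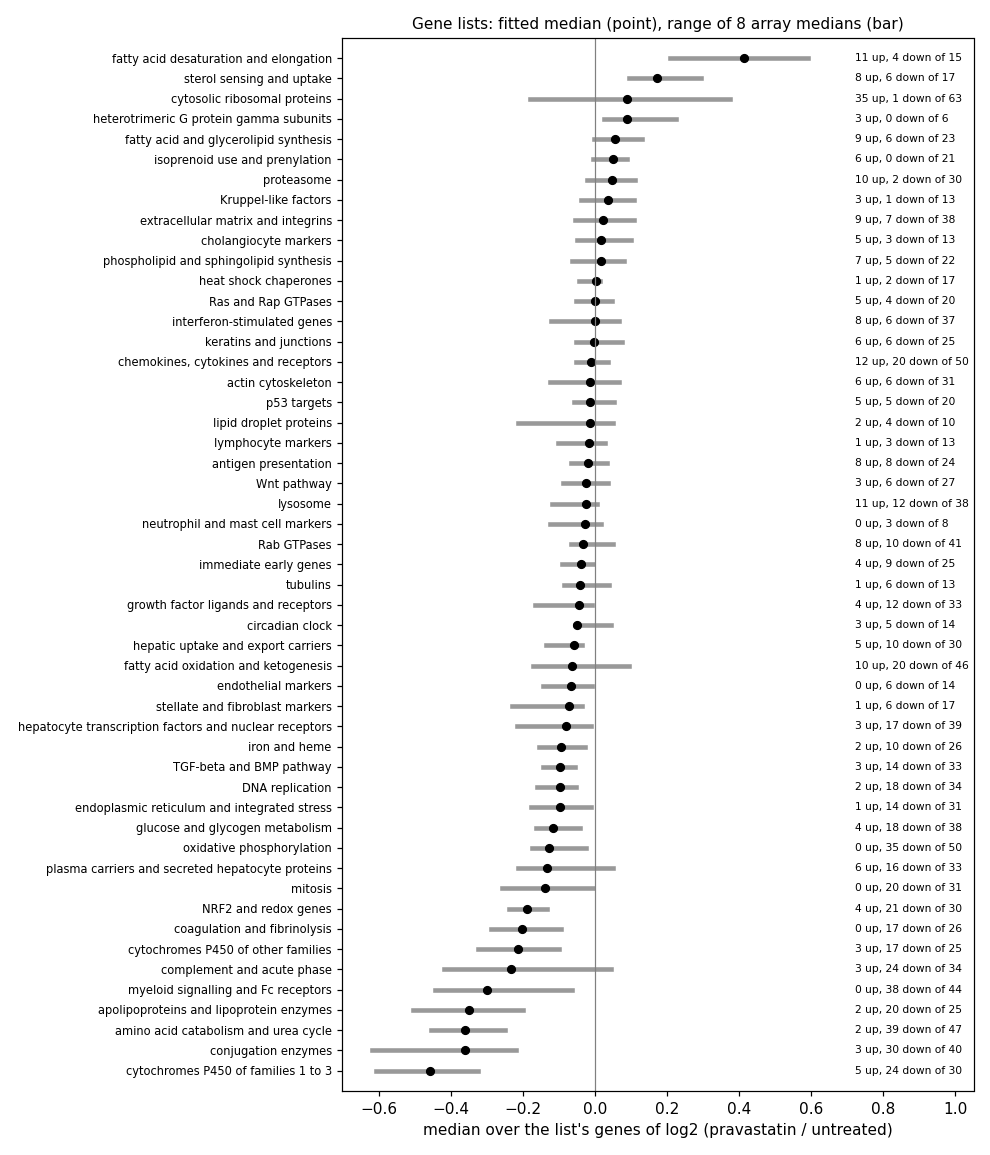
Median over each list's genes of log2 of pravastatin over untreated (points, horizontal axis) and range of the 8 arrays' own medians (bars) for 51 gene lists, with the number of genes called up and down. The lowest medians are those of P450 families 1 to 3 (−0.46), conjugation enzymes (−0.36), amino acid catabolism (−0.36), apolipoproteins (−0.35) and myeloid genes (−0.30), and the highest is that of desaturation and elongation (0.41).

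Plasma protein genes declined by less. Coagulation and fibrinolysis had 17 of 26 down and 0 up (median −0.20), led by Serpind1, heparin cofactor II (−0.95 ± 0.11), and Plau, urokinase (−0.76 ± 0.08). Of 34 complement and acute phase genes 24 fell and 3 rose (median −0.23), and their single-array medians ran from −0.42 to 0.05. A2m, alpha-2-macroglobulin, an acute phase protein in rats, lay between 0.27 and 1.51 and rose by 0.85 ± 0.11, while the mannose-binding lectin Mbl1 fell by 0.54 ± 0.05. Carriers and other secreted proteins had 16 of 33 down and 6 up (median −0.13), with single-array medians of −0.21 to −0.12 where treated RNA was in A555 and −0.01 to 0.05 where it was in A647. For the complement list these were −0.42 to −0.30 and −0.17 to 0.05. Azgp1, a lipid-mobilising glycoprotein, lay between −1.45 and −0.93 and fell by 1.15 ± 0.06. Hamp, the iron hormone hepcidin, lay between 0.02 and 1.51 and rose by 0.76 ± 0.08, with a mean of 0.36 in one dye orientation and 1.17 in the other. Tfrc, the transferrin receptor, fell by 0.52 ± 0.03. Alb, albumin, was called at −0.25 ± 0.07 with −0.82 to −0.42 on the 4 arrays with treated RNA in A555 and 0.03 to 0.28 on the other 4, so its groups of arrays lay on opposite sides of 0.

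Genes of myeloid cells fell beside the macrophage markers. Of 44 measured myeloid signalling and Fc receptor genes 38 fell and 0 rose (median −0.30, single arrays from −0.44 to −0.06), next to 17 of 17 macrophage genes that fell with a median of −0.83 (single arrays from −1.004 to −0.46). In a culture dish, fewer cells of a type and less RNA per cell cannot be told apart. Hpgds, the prostaglandin D synthase of blood cells, had −0.17 in replicate 1 and −1.65 to −0.74 on the others, and fell by 1.19 ± 0.13. Ctss, the protease that frees class II molecules from their chaperone, lay between −0.96 and −0.69 and fell by 0.81 ± 0.04, and Cd74, that chaperone, fell by 0.64 ± 0.04. Outside the myeloid list, Cd93, a C1q-linked receptor, lay between −1.93 and −0.67 and fell by 1.36 ± 0.12. Vcam1, an adhesion molecule for leukocytes, is listed with the chemokines and receptors and not as a myeloid gene. It had −0.71 in replicate 1 and −1.46 to −1.28 on the others, and fell by 1.30 ± 0.06. The part of the macrophage markers in these results was not tested.

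Other immune groups went less one way. Chemokines, cytokines and their receptors had 12 of 50 up and 20 down (median −0.01). Ccl20 rose by 0.83 ± 0.10, Il1r2, a decoy receptor of interleukin 1, rose by 0.73 ± 0.07, and Ccl6 fell by 0.90 ± 0.06. Antigen presentation had 8 of 24 up and 8 down, with Tapbp, the class I chaperone, up by 0.37 ± 0.04 and Cd86, a costimulatory ligand, down at −0.62 ± 0.08. Interferon-stimulated genes had 8 of 37 up and 6 down (median 0.00, of either sign over the settings), led by Stat2 (0.68 ± 0.03, arrays from 0.55 to 0.88). Lysosome genes had 11 of 38 up and 12 down, with Npc2, the lysosomal cholesterol carrier, up by 0.60 ± 0.04.

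Markers of other cells were nearer to 0 than those of macrophages. Stellate and fibroblast markers had 1 of 17 up and 6 down (median −0.07), endothelial markers 0 of 14 up and 6 down (median −0.07), and cholangiocyte markers 5 of 13 up and 3 down (median 0.02). Single-array medians of these lists ran from −0.23 to −0.04, from −0.14 to −0.01 and from −0.05 to 0.10. Lymphocyte markers had 1 of 13 up and 3 down, and neutrophil and mast cell markers 0 of 8 up and 3 down. Lrat, the retinol esterase of stellate cells, fell by 0.38 ± 0.06, and Epcam, of cholangiocytes, rose by 0.37 ± 0.03. They were the largest fall and the largest rise of their lists. Of other stellate markers, Col3a1 fell by 0.21, while Des (−0.06), Reln (0.05) and Col1a1 (0.14) were not called. The cholangiocyte markers Krt7 (−0.06) and Krt19 (−0.003) were not called either. The endothelial marker Fcgr2b fell by 0.28 on its brighter probe, while its other probe stood at 0.50.

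Cell cycle genes fell by small amounts. Mitosis genes had 20 of 31 down and 0 up (median −0.14) and DNA replication genes 18 of 34 down and 2 up (median −0.10). Cdk1, the mitotic kinase, lay between −0.60 and −0.22 and fell by 0.46 ± 0.04, and Rrm2, of nucleotide supply, fell by 0.35 ± 0.04. None of the genes in these 2 lists changed by 1.5-fold.

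Stress programmes moved by small amounts. Heat shock chaperones had 1 of 17 up and 2 down (17.6% called, below the 38.9% of all genes), endoplasmic reticulum stress genes 1 of 31 up and 14 down (median −0.10), and p53 targets 5 of 20 up and 5 down. Atf4, the factor of the integrated stress response, rose by 0.23 ± 0.03, and the chaperone Dnajc3 fell by 0.33 ± 0.03. Gadd45a and Gadd45b rose by 0.27 ± 0.05 and 0.23 ± 0.07, while Gadd45g fell by 0.46 ± 0.03.

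Signalling lists were similar. The TGF-beta and BMP pathway had 3 of 33 up and 14 down (median −0.10), with its target Id4 at −0.58 ± 0.09 and Id2 at −0.44 ± 0.05. Growth factor genes had 4 of 33 up and 12 down, with Vegfb up by 0.53 ± 0.04 and Fgf1 down at −0.44 ± 0.04. The Wnt pathway had 3 of 27 up and 6 down. Notum, a Wnt-inactivating enzyme of pericentral hepatocytes, had −0.09 as its highest array and fell by 0.70 ± 0.09. Lef1, a factor of that pathway, was above background in the treated channel of 8 arrays and in the untreated channel of none, so that its rise has only a bound, at least 1.78-fold (adjusted p = 2.3e-06). Its fitted value was 0.85, or 3.81 with the Agilent processed signals, and its other probe stood at −0.01. In the circadian clock, 3 of 14 genes rose and 5 fell; Ciart, a repressor of the clock, rose by 1.06 ± 0.11 with arrays from 0.31 to 1.57, and Bmal1 fell by 0.27 ± 0.02.

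The size of the effect differed between the culture series for part of the genes. The interaction of drug and series was called for 1032 of 20760 genes (4.97%), of which 157 were among the 402 genes with a change of at least 1.5-fold. Fitted separately, the first series gave 4016 calls and the second 8845. For 24 genes both series were called with opposite signs. Of 213 named genes 53 had a called difference, and in 52 of these the change was larger in the second series. Some of the 53 were named because of such a difference, and most named genes were chosen for their change. The share thus does not stand for all genes, and the direction over all 1032 was not counted. Scd2 rose by 4.58 in the first and 5.49 in the second series (difference 0.92 ± 0.15, adjusted p = 0.0026). Ampd3, an AMP deaminase, rose by 1.04 and 2.01, Btnl5, a butyrophilin-like protein, by 1.00 and 1.90, and Sdcbp2, a syntenin, by 0.95 and 1.81. Over all arrays Btnl5 stood at 1.45 on its brighter probe and 0.11 on the other, and at 2.89 with the Agilent processed signals. Cyp3a23-3a1 was at −0.99 and −1.99, and its 4 arrays of the first series (−1.13 to −0.92) did not overlap the 4 of the second (−2.10 to −1.90). Replicate 1, with its smaller values in the main processing, belongs to the first series.

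**Figure D4:**
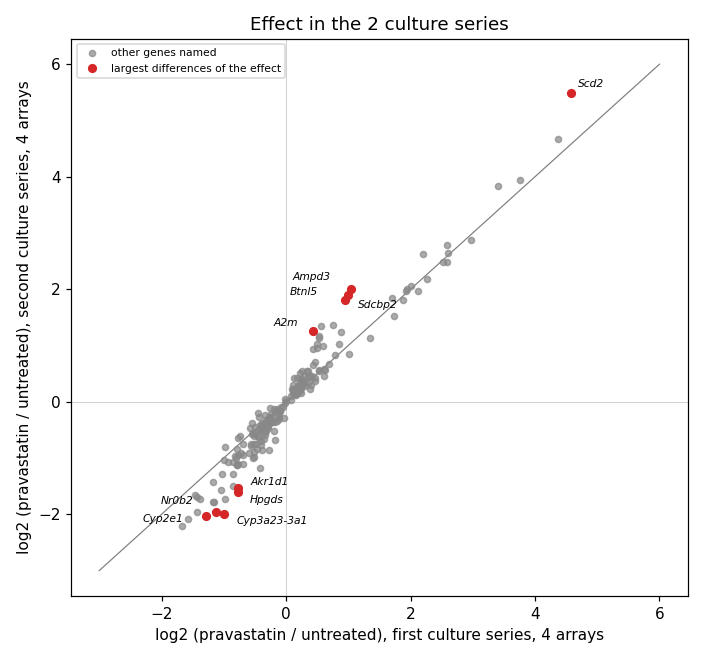
Log2 of pravastatin over untreated in the first culture series (horizontal axis) against the second (vertical axis) for 213 named genes, 4 arrays each, with the line of equal effect. The 10 genes with the largest called differences (red), among them Scd2 (4.58 and 5.49) and Cyp3a23-3a1 (−0.99 and −1.99), lie farther from 0 in the second series.

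Where pravastatin differed from SQ1 was tested as a contrast in the same model. SQ1 is a code name in the labels, used in hepatocyte work for squalestatin 1, an inhibitor of squalene synthase, a later step of the same pathway. Doses differed (30 µM and 100 µM), both drugs share the untreated cultures, and no slide held both, so drug and slide cannot be told apart. The contrast was called for 7866 genes (37.9%), 4041 higher and 3825 lower with pravastatin, and for 9884 with the replicate number as a block, which accounts for the shared cultures. Several enzymes of drug metabolism were among the genes chosen for the largest differences. Cyp2b2, the phenobarbital-inducible P450, was at −0.57 with pravastatin and 3.19 with SQ1 (difference −3.76 ± 0.12, adjusted p = 2.6e-13). Arrays of the 2 drugs did not overlap for this gene. Cyp3a23-3a1 was at −1.49 against 1.94, Ugt2b1, a glucuronosyltransferase, at −0.80 against 2.64, and Cyp2b21 at −0.16 against 3.23. Gsta5, a glutathione transferase, was at −0.89 against 1.76, Cyp2c6v1 at −0.75 against 1.71, Sult1c2a at −0.62 against 1.70, and Hmox1, heme oxygenase, at −0.32 against 1.47.

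Other genes were higher with pravastatin than with SQ1. G6pc1 was at −1.001 with pravastatin and −3.02 with SQ1 (difference 2.02 ± 0.08, adjusted p = 3.2e-12), and Slc37a4, its partner that carries glucose-6-phosphate, at −0.43 against −2.49. Eif4ebp3, a translation repressor, was at 0.28 against −1.96, on opposite sides of 0. Serpind1 (−0.95 against −2.81), Fmo1, a flavin monooxygenase (−1.06 against −2.82), S1pr1, a sphingosine phosphate receptor (−0.55 against −2.35), Aldoart2 (−0.43 against −2.28) and C4bpb (−0.41 against −2.22) had differences of 1.76 to 1.86. For genes of the SREBP response the drugs differed by smaller amounts. Insig1 was at 2.62 with pravastatin and 2.91 with SQ1 (adjusted p = 0.00092). Fasn was at 0.94 against 0.21 (adjusted p = 0.00089). Other large rises had no called difference, such as Elovl6 (2.54 against 2.53), Tspan13 (3.86 against 3.73) and Nfe2 (3.62 against 3.53). For Scd2 (5.03 against 4.47) and Fads1 (2.22 against 2.59) the difference was called. Of the 402 genes that changed at least 1.5-fold with pravastatin, 246 had a called difference. The median of P450 families 1 to 3 was −0.46 with pravastatin and −0.50 with SQ1. Vcam1 was lower with pravastatin, at −1.30 against −0.58 (adjusted p = 4.5e-06), while Apoa1 was higher, at 0.60 against −0.54 (adjusted p = 4.3e-08).

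**Figure D5:**
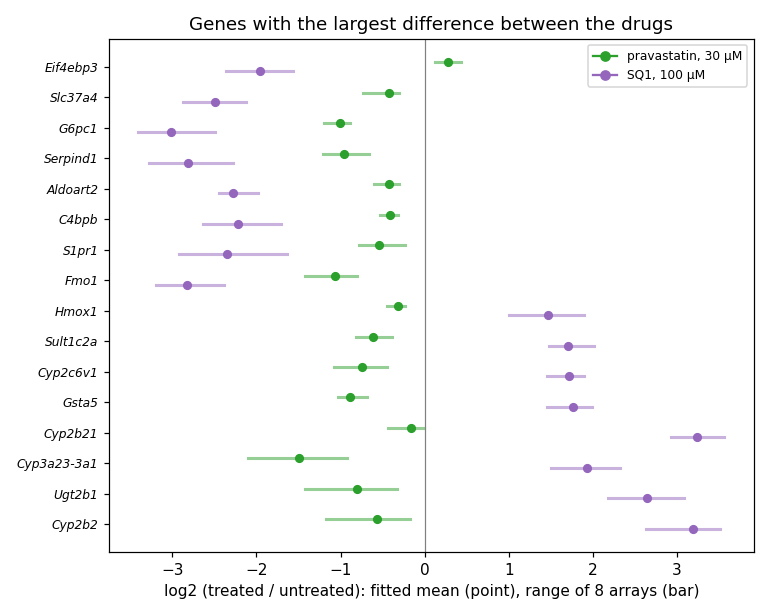
Fitted log2 of treated over untreated (points, horizontal axis) and range of 8 arrays (bars) for pravastatin at 30 µM (green) and SQ1 at 100 µM (purple) in the 16 genes with the largest differences between the drugs. For Cyp2b2, Ugt2b1 and Cyp2b21 the pravastatin bars lie at or below 0 and the SQ1 bars above 2, and for G6pc1, Serpind1 and Fmo1 both drugs lie below 0, SQ1 further.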

How the data were processed

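RNA of treated and untreated cultures was amplified in 1 round, labelled with Alexa dyes and hybridised to Agilent arrays, per the labels' protocols. The deposited scanner intensities are median spot and background signals from Agilent Feature Extraction 10.7.1.1, with probe coordinates on rn4, per the file headers. Of the deposited values made by the authors' scanner software, processed signals served as an alternative and log10 ratios to match the value table. In the deposited value table (log2) each of 16 columns matched the array with its number but of the other drug (r 0.938 to 1.00, against 0.421 to 0.562 with its own), so scanner files were used.

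From these intensities, normexp background correction (offset 50) and loess within arrays were run in limma 3.58.1 (R 4.3.3), with control spots at weight 0. Of 30367 probes, those well above background in at least 6 of 32 channels were kept, and a gene's brightest probe stood for it. Probes without a symbol counted as genes. A model over all 16 arrays had a term per drug and a dye term, and p-values are two-sided. They measure the spread between these arrays, whose number limits the precision. Same-numbered arrays of the drugs deviated together (residual r 0.142 to 0.629 over 8 pairs). For 6 of the 8 pairs this r exceeded that with any other number. It did not for replicates 3 (0.345 against 0.391) and 8 (0.142 against 0.298). The pairing by number rests on the untreated cultures, which these arrays share by the numbers in the file names. On simulated data, limma called all 50 genes at each fold size (log2 of 1 and 0.585, both directions) among 20760 genes, and 10 of 20560 unchanged ones. The simulated noise was independent between arrays and no smaller change was included. It thus did not test the smaller changes that make up most calls, or the effect of shared cultures. Named genes were the 15 largest rises and falls of 1 sign on 8 arrays, the top 2 each way in every list, and genes fixed by name; a few of these are not reported here. Members and lists were chosen with earlier results of these data known. The alternatives tried were other signals, centring, scaling, filters, probe rules, blocks, single culture series and leaving out each replicate.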

Additional observations from a re-analysis of the deposited data

Results flagged for a closer look

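In the main processing replicate 1 lay far from the other 7 arrays for 15 of 213 named genes, by a gap that chance gives in about 1 in 20 groups. None of the other arrays did so for any of them. With the Agilent processed signals its slope on the other arrays was within their range, and gaps were not tested there. On that array the rises were 3.82 for Ropn1l, 1.93 for Nfe2, 1.43 for Gng13, 1.20 for Comp and 0.24 for Gng8. Cds1 was at 0.062, Rab4b at 0.051 and Wnt4 at 0.017. Among the falls Cyp7a1 was at −0.48, Nr0b2 at −0.14, Vcam1 at −0.71, Abcg1 at −0.31 and Mylip at −0.080. For Ier5 (0.51) and Foxa2 (0.52) replicate 1 was the highest array rather than the one nearest to 0.

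The effect differed between the culture series by the interaction in limma for 10 named genes with the largest such differences. Second minus first series, these were 0.92 for Scd2, 0.97 for Ampd3, 0.90 for Btnl5, 0.85 for Sdcbp2 and 0.82 for A2m. For genes that fell they were −0.995 for Cyp3a23-3a1, −0.83 for Nr0b2, −0.83 for Hpgds, −0.77 for Akr1d1 and −0.75 for Cyp2e1. Scan day and slide change with the series, so these cannot be told apart.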

How the results depend on the processing

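Of 213 named genes 188 kept their direction and their side of the threshold in all 20 settings. Most were chosen for being called with 1 sign on 8 arrays, which favours this. Among all 8081 called genes 4467 had 1 sign on 8 arrays, and the share that held in every setting was not counted for them. The first culture series alone gave 4016 calls, 1871 up and 2145 down. Calls with a change of at least 1.5-fold numbered 956 with the Agilent processed signals, 957 with the deposited value table, 749 with arrays scaled to 1 spread and 621 in the second series alone, in place of 402. The cause was not tested. Leaving out each replicate in turn gave 7013 to 8155 calls, 3468 to 4081 up, 3530 to 4074 down and 382 to 457 of at least 1.5-fold. With the replicate number as a random block 8009 genes were called for pravastatin, and of the named genes Hacd3 alone lost its call (adjusted p = 0.055). With the Agilent processed signals 8 named genes moved their fold by over 1.5 times, without replicate 1 none (0 of 213). The first series alone lost 20 named calls, median centring 5, and the mean of a gene's probes 3. That last setting also reversed Fcgr2b, to 0.11, where its probes disagree. For Lef1, not well above background in any untreated channel, the signal allows only a bound.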
